A study of Mus musculus with 6 samples.

Results

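Immediate early response genes were followed across 6 RNA sequencing libraries of mouse CD4 T cells. The 10 genes are the AP-1 genes Fos, Fosb, Jun and Junb, the transcription factor genes Egr1 and Nr4a1, and Ier2, Dusp1, Ppp1r15a and Plk2. They are 10 of the 54532 gene rows in the deposited table, and all 10 passed the filter on low values, as did 14944 genes in all. They were chosen by name as early genes after Nr4a1, Jun, Ppp1r15a and Plk2 had been seen to differ between libraries coded CCPF22 and libraries coded CCPF24. Values of series 22 against series 24 are therefore given as a description, with no test, and the difference between genotypes is the comparison that was tested.

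The libraries came from C57BL/6 mice, from whole CD4 T cells of spleen and lymph nodes. The 3 KO libraries (KO 1, KO 4 and KO 5) carry the genotype label iCD4-PRMT5 delta/delta, and the 3 WT libraries (WT 1, WT 2 and WT 4) carry iCD4-PRMT5fl/fl, so that the WT animals have floxed alleles of Prmt5, which encodes a protein arginine methyltransferase. All 6 share a treatment label of anti-CD3/CD28 for 48 h, while their titles carry the word rest, and the labels do not settle the activation state. Series 22 holds KO 1, WT 1 and WT 2, and series 24 holds KO 4, KO 5 and WT 4, with no label saying what the code stands for. The age of the animals and the agent or promoter behind the deletion were not given in the sources used here.

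Immediate early genes are transcribed within minutes of a signal and need no new protein for it. MAP kinases and calcium signals reach factors already bound at their promoters, among them SRF with its ELK partners and CREB, and the transcripts are short-lived. In T cells they follow engagement of the T cell receptor, and many of their products are transcription factors or enzymes that shape or end the response.

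Values are robust FPM, that is sequenced fragments per gene, scaled by the authors with robust size factors. Gene rows summed to between 857334 and 954014 in the 6 libraries, and the sequencing depth is unknown. Prmt5 measured 24.4, 23.8 and 21.5 in the KO libraries 1, 4 and 5, against 34.9, 41.0 and 43.9 in the WT libraries 1, 2 and 4, so that the groups did not overlap. Cd4 measured between 388.8 and 465.0 in series 22 and between 391.7 and 458.8 in series 24. In WT 1, 21275 genes had a value of at least 1, against 13876 to 15003 in each other library. In such bulk samples, fewer cells of a type and less RNA per cell cannot be told apart.

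Short stretches of promoter were searched for known elements, as a description of sequence that was not related to the expression values. Letters are from RefSeq on GRCm38.p6, where 8 of the 10 genes had an entry, and the 250 bases before each start site were searched on both strands. The full cyclic AMP response element TGACGTCA, a binding sequence of CREB, was found upstream of Dusp1, Ppp1r15a and Plk2, in 3 of the 8 promoters and in 1.55% of all 32851. Its core TGACG, which also lies within each full element, was found in 7 of the 8 and in 17.8% of all promoters. Capitals mark the core or the full element, and CGTCA is the core on the other strand. The 3 genes with the full element are shown first, then Fos and Nr4a1, which had the core at 2 and 4 places.
Dusp1: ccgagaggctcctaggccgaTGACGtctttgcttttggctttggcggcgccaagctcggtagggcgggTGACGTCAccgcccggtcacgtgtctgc
Ppp1r15a: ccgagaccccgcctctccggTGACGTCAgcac
Plk2: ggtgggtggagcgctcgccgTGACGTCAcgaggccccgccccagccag
Fos: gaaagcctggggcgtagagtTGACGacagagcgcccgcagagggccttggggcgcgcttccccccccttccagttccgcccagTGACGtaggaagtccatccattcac
Nr4a1: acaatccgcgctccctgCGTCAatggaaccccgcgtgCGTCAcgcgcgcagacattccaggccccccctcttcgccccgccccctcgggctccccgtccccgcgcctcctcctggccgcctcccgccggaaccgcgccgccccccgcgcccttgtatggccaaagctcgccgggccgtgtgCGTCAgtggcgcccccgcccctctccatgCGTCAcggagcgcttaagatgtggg
The stretches lie at chr17:26508588-26508683 (minus strand) for Dusp1, chr7:45526269-45526300 (minus strand) for Ppp1r15a, chr13:110394962-110395009 (plus strand) for Plk2, chr12:85473741-85473848 (plus strand) for Fos and chr15:101266596-101266830 (plus strand) for Nr4a1. The core also stood upstream of Fosb and Junb, and was not in the window of Jun. The AP-1 element TGACTCA was in 0 of the 8 windows and in 4.46% of all promoters, and the CArG box of SRF was in 0 of the 8 and in 1.47%. Bases outside these windows were not searched, and Egr1 and Ier2 had no entry. The 0 counts therefore do not show that a gene lacks such a site. A match describes letters only, and binding was not measured.

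All 10 early genes had higher values in each library of series 22 than in any library of series 24, in both genotypes. This holds for 6.14% of all genes tested, while 14.3% were lower in every series 22 library. In 8 of the 10 genes the mean of series 22 was also at least 2 times that of series 24, against 1.33% of all genes tested, and Egr1 and Ier2 were the other two. Because the genes were chosen on this contrast, nothing is read from these counts. Leaving out WT 1, or any other library, cannot make values that are apart overlap, so it is no check on these counts.

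**Figure D1:**
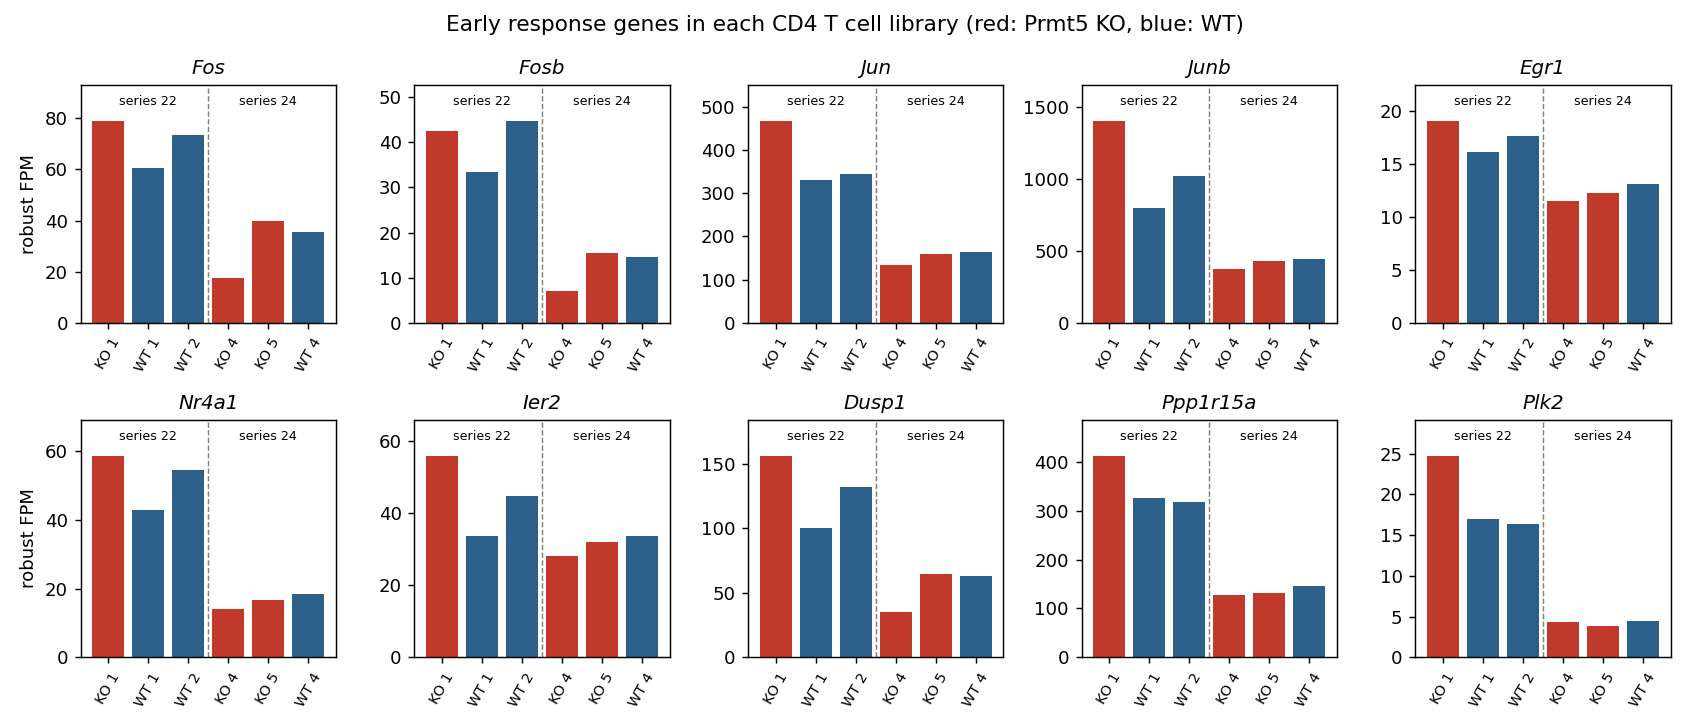
Robust FPM of each early response gene (vertical axis, from 0, scaled per gene) in the 6 libraries, with KO in red, WT in blue, series 22 left of the dashed line and series 24 right of it. Junb stood between 799.4 and 1401.8 in series 22 and between 375.1 and 443.4 in series 24, while the bars of Ier2 nearly meet at 33.7 in WT 1 and 33.5 in WT 4.

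Among the AP-1 genes, Fos encodes a leucine zipper protein that binds DNA as a pair with a JUN protein. It measured 78.9 in KO 1, 60.7 in WT 1 and 73.6 in WT 2 of series 22, and 17.5 in KO 4, 39.9 in KO 5 and 35.5 in WT 4 of series 24. KO 4 was the lowest library, apart from both KO 5 and WT 4. Fosb, its close relative, measured 42.6, 33.4 and 44.7 in KO 1, WT 1 and WT 2, against 7.0, 15.4 and 14.5 in KO 4, KO 5 and WT 4. Both FOS genes thus had the same low library. The ratio of the series means, 22 over 24, was 2.295 for Fos (71.1 ± 9.36 against 31.0 ± 11.9, SD, n = 3 each) and 3.271 for Fosb (40.2 ± 6.01 against 12.3 ± 4.61, SD, n = 3 each).

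Jun and Junb encode the JUN partners in AP-1. Jun measured 467.0, 330.3 and 344.2 in KO 1, WT 1 and WT 2, against 132.7, 159.9 and 163.5 in KO 4, KO 5 and WT 4. Junb measured 1401.8, 799.4 and 1023.3 in KO 1, WT 1 and WT 2, against 375.1, 427.3 and 443.4 in KO 4, KO 5 and WT 4. In both genes KO 1 was the highest library and KO 4 the lowest, and the libraries of series 24 lay closer together than for Fos. The ratio of the series means was 2.503 for Jun and 2.588 for Junb. An antisense gene, Junos, covers 7.28% of the exon bases of Jun, and Prdx2 on the opposite strand covers 7.52% of those of Junb. Junos measured 1.9 to 4.3 and Prdx2 44.5 to 70.1 over the libraries, and the sources used here do not say whether reads were counted by strand, so that reads in the shared bases cannot be assigned with certainty.

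Egr1 encodes a zinc finger transcription factor induced through the ERK pathway. It measured 19.0, 16.1 and 17.6 in KO 1, WT 1 and WT 2, against 11.5, 12.2 and 13.1 in KO 4, KO 5 and WT 4, the smallest ratio of series means of the 10 genes at 1.432. Nr4a1 encodes the orphan nuclear receptor NUR77, widely used as a readout of T cell receptor signalling. It measured 58.6, 42.8 and 54.6 in KO 1, WT 1 and WT 2, against 14.1, 16.7 and 18.5 in KO 4, KO 5 and WT 4, with a ratio of series means of 3.165. The 2 genes differed in size but not in the order of their libraries, which ran from KO 4 as the lowest through KO 5, WT 4, WT 1 and WT 2 to KO 1.

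Of the remaining genes, Plk2, which encodes a polo-like kinase, had the largest ratio of series means of the 10, at 4.567. It measured 24.7, 17.0 and 16.3 in KO 1, WT 1 and WT 2, against 4.4, 3.8 and 4.5 in KO 4, KO 5 and WT 4, and was the single member whose lowest library was KO 5. Ppp1r15a encodes GADD34, which directs a phosphatase to the translation factor eIF2 alpha. It measured 411.7, 325.2 and 318.6 in KO 1, WT 1 and WT 2, against 127.5, 131.8 and 146.7 in KO 4, KO 5 and WT 4, with a ratio of series means of 2.6. Dusp1 encodes a phosphatase that inactivates MAP kinases. It measured 156.2, 100.7 and 132.4 in KO 1, WT 1 and WT 2, against 35.1, 64.3 and 63.3 in KO 4, KO 5 and WT 4, a pattern with the same low KO 4 as Fos and Fosb.

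Ier2, which encodes a small nuclear protein, had a ratio of series means of 1.434, close to the 1.432 of Egr1. It measured 55.8, 33.7 and 44.7 in KO 1, WT 1 and WT 2, against 28.2, 31.9 and 33.5 in KO 4, KO 5 and WT 4, so that WT 1 and WT 4 were nearly equal. Its log2 difference between series, fitted with genotype as a term, was 0.55, but 0.21 without KO 1 and 0.88 without WT 4. With columns rescaled to equal sums, 9 of the 10 genes kept apart and Ier2 overlapped. Of all genes tested, 4.86% were then higher and 21.3% lower in every series 22 library. With scaling to the ERCC spike-in rows, 8 kept apart, and Egr1 and Ier2 overlapped, while the share of all genes higher in every series 22 library was 1.65%.

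Set per kilobase of exon, Junb had the highest level, from 347.4 to 609.2 FPM per kb in series 22 and from 163.0 to 192.7 in series 24. Jun and Ppp1r15a followed with overlapping ranges of 103.6 to 146.4 and 108.5 to 140.2 FPM per kb in series 22. Dusp1, Ier2 and Fos formed a middle group, at means over all 6 libraries of 27.8, 24.9 and 21.7 FPM per kb, with ranges that overlapped over the 6 libraries. Nr4a1 averaged 9.75 and Fosb 4.21 FPM per kb. Egr1 averaged 3.33 and Plk2 2.62 FPM per kb, with ranges that overlapped in series 22 but not in series 24. The order at this end differed between the series, as Fosb lay above Egr1 in series 22, at 5.35 to 7.16 against 3.59 to 4.24 FPM per kb, and below it in series 24, at 1.12 to 2.47 against 2.57 to 2.92.

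The series difference was seen within each genotype. Between KO libraries alone (KO 1 minus the mean of KO 4 and KO 5), the 10 log2 differences ran between 0.66 for Egr1 and 2.46 for Plk2. Between WT libraries alone (the mean of WT 1 and WT 2 minus WT 4), they ran between 0.21 for Ier2 and 1.78 for Plk2. In each of the 10 genes the difference was larger, in the positive direction, among KO libraries, as in 71.6% of all genes tested. This is the same quantity as the interaction of genotype and series given below, not a separate result.

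The KO minus WT comparison asked whether early gene transcripts differ with loss of Prmt5. No difference of the 10 genes passed the test. With library series as a term, limma called 0 of the 10 genes at an adjusted p below 0.05, and 0% of the 14944 genes tested in either direction. Prmt5 itself, whose values did not overlap between the genotypes, was tested and not called either. A gene that was not called is therefore not shown to be unchanged. Unadjusted, 37 genes had a p under 0.05, of which 12 were higher and 25 lower in KO, and 0 of the 10 were among them (limma adjusted p = 1 for each of the 10).

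**Figure D2:**
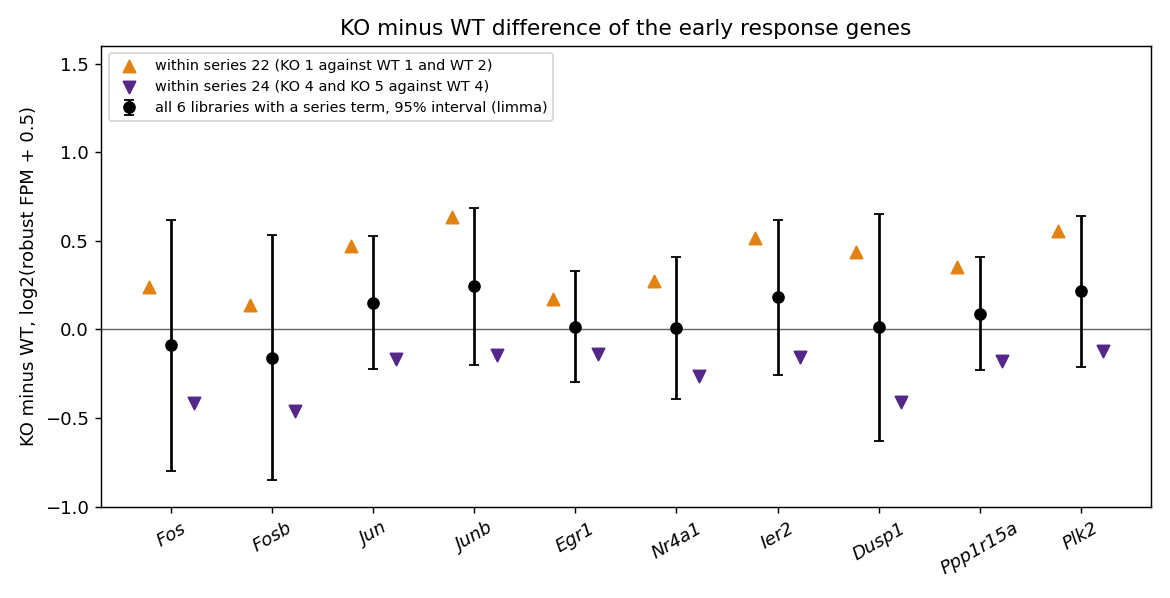
KO minus WT difference on the log2(robust FPM + 0.5) scale (vertical axis) for each gene, as the fitted value over all 6 libraries with its 95% interval (black), within series 22 (orange triangles up) and within series 24 (purple triangles down). Every interval spans 0, every orange triangle lies above 0 and every purple triangle lies below it.

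The fitted log2 changes lay between -0.16 and 0.24, and the SDs of the group means below include the series difference. Fos averaged 45.4 ± 31.1 in KO and 56.6 ± 19.4 in WT (SD, n = 3 each), with a fitted log2 change of -0.09 (95% interval -0.80 to 0.62). Fosb had the most negative change, at -0.16 (-0.85 to 0.53). Junb had the most positive change, at 0.24 (-0.20 to 0.69), and averaged 734.7 ± 578.3 in KO and 755.4 ± 292.4 in WT (SD, n = 3 each). Its means and its fitted change have opposite signs because the fit compares genotypes within series. Nr4a1, the readout of receptor signalling, averaged 29.8 ± 25.0 in KO and 38.6 ± 18.4 in WT (SD, n = 3 each), with a change of 0.0066 (-0.39 to 0.41). Over the 10 genes 8 changes were positive and 2 negative, where 54.4% of all genes tested were positive, and the median was 0.05 against 0.01 for all genes. This split turned on single libraries. All 10 changes were negative without KO 1 and all 10 were positive without KO 4 or without WT 4, while 28.8%, 62.7% and 66.5% of all genes were positive in these fits. Without WT 1, the changes lay between -0.29 and 0.18, 5 positive and 5 negative, and 0 genes were called. Without KO 5, 6 were positive and 4 negative. In the fit to all 6 libraries with the series term the 10 intervals stayed within 1 log2 unit of 0, that is short of a 2-fold difference. Without KO 1 this held for 7 of the 10 (lowest bound -1.56) and without WT 4 for 4 of the 10 (highest bound 1.36). In all 6 libraries without the series term it held for 2 of the 10 (lowest bound -2.12, highest 1.14).

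The 2 series gave KO minus WT differences of opposite sign in all 10 genes. In series 22 KO 1 was above the mean of WT 1 and WT 2, by 0.14 (Fosb) to 0.63 (Junb) on the log2 scale. In series 24 the mean of KO 4 and KO 5 was below WT 4, at -0.46 (Fosb) to -0.12 (Plk2). Among all genes tested, 54.3% had this combination of signs. In 7 of the 10 genes KO 1 exceeded both WT libraries of its series and both KO libraries of series 24 were below WT 4. The same held in 31.5% of all genes tested.

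The difference between the series was tested as an interaction, and it was not called for any of the 10 genes or for any other gene (limma, 0% of 14944 called). The interaction, KO minus WT in series 22 minus that in series 24, was positive in all 10 genes, between 0.31 (Egr1) and 0.84 (Dusp1), with a median of 0.64. It was positive in 71.6% of all genes tested, with a median of 0.21. Ppp1r15a had the smallest p of the 10, with an interaction of 0.53 (95% interval 0.11 to 0.96, limma adjusted p = 0.678). Unadjusted, 369 genes or 2.47% of those tested had a p under 0.05, and 3 of the 10 were among them, namely Jun, Junb and Ppp1r15a. The interaction is made of series differences, on which the genes were chosen, so nothing is read from these counts. With ERCC scaling the median over all genes was 0.84 and the interactions of the 10 genes lay between 0.95 and 1.50.

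**Figure D3:**
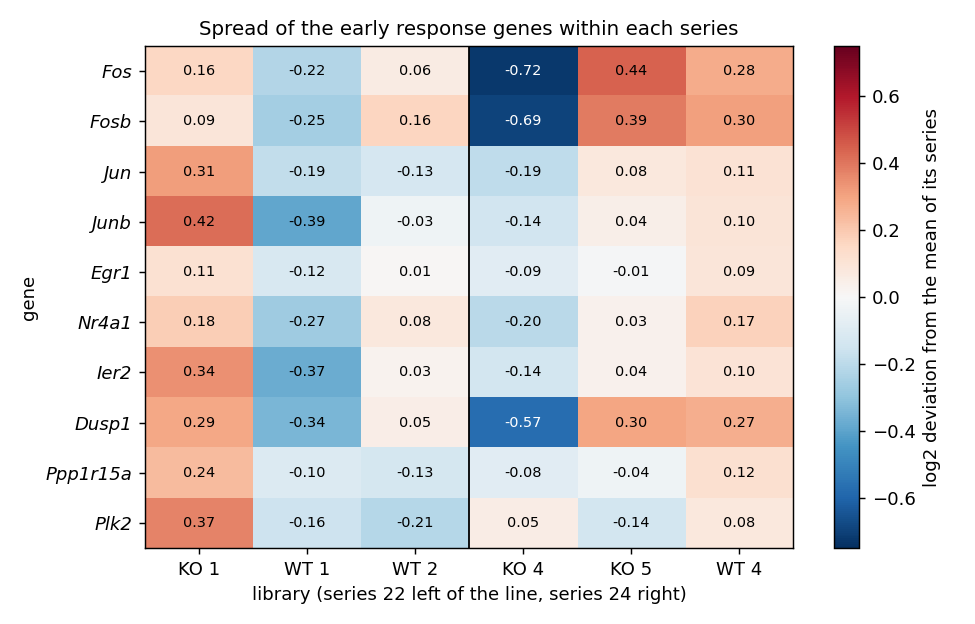
Log2 deviation of each library from the mean of its own series (colour and printed value) for the 10 genes in rows and the 6 libraries in columns, with series 22 left of the line. Fos, Fosb and Dusp1 stand out in KO 4, at -0.72, -0.695 and -0.57, while Junb and Ier2 spread most in series 22.

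Within series, the 10 genes did not all spread alike. The mean deviation over the 10 genes was 0.25 in KO 1, -0.24 in WT 1 and -0.01 in WT 2, and -0.28 in KO 4, 0.11 in KO 5 and 0.16 in WT 4. Fos, Fosb and Dusp1 had the deepest values in KO 4, and the interaction of Fos was 0.07 without KO 4 and 1.24 without KO 5. That of Fosb was 0.05 without KO 4 and 1.14 without KO 5, and that of Dusp1 was 0.41 and 1.28. For Fos and Fosb the difference between series in KO minus WT was thus close to 0 without KO 4. Jun, Ppp1r15a and Plk2 deviated by -0.19 to 0.12 in series 24, and their interaction lay between 0.50 and 0.77 when WT 1, WT 2, KO 4 or KO 5 was left out. Deviations of single genes from their series mean correlated with those of the other 9 genes at Pearson r between 0.75 and 0.95 for 9 genes and at 0.41 for Plk2, over 6 libraries that are shared by all genes.

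Other measures also differed between the libraries of series 24. The proliferation gene Mki67 stood at 56.4 in KO 4, at 116.0 in KO 5 and at 104.2 in WT 4. It is from a list of activation and cycling genes, whose sums were 1514.1, 1638.2 and 1725.7 in these libraries. Of the 11 tested, 7 were lowest in KO 4 over all 6 libraries, against 20.4% of all genes tested, while Ccr7 was highest there at 279.3. The summed level of 22 myeloid markers was 1327.2 in KO 4, 2701.2 in KO 5 and 1924.3 in WT 4, and over the 3 libraries of series 22 it ran from 655.5 to 1358.7. The part of these differences in the low Fos, Fosb and Dusp1 values of KO 4 was not tested.

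Other early response genes were taken from a list that excludes the 10. Of 58 listed genes 51 were tested, and 27 of them, or 52.9%, were higher in every library of series 22, with 0 lower in every one, against 6.14% and 14.3% of all genes tested. Their median log2 difference between series was 0.54, against 1.38 for the 10 genes and -0.06 for all genes tested. Of the 4 with the highest mean value, Tnfaip3, which encodes the NF-kappaB inhibitor A20, measured 766.9, 493.8 and 612.8 in KO 1, WT 1 and WT 2, against 117.8, 144.5 and 130.8 in KO 4, KO 5 and WT 4. Cd69, an early activation antigen, measured 369.4, 303.2 and 365.7 in KO 1, WT 1 and WT 2, against 193.2, 214.7 and 216.0 in KO 4, KO 5 and WT 4. Both thus kept the series apart. Mcl1 and Btg1, the others of the 4, differed little, and both overlapped between the series. Mcl1, a survival factor of the BCL2 family, had a series difference of 0.07, and Btg1, an antiproliferative gene, one of 0.23. In the KO minus WT comparison limma called 0 of the 51, with 43 positive and 8 negative changes and a median of 0.12, where 54.4% of all genes were positive. Single libraries weigh on this split too. Of the 51, 43 were highest in KO 1 and 37 were lowest in KO 4, against 21.5% and 20.4% of all genes tested. The split of this list was not refitted with a library left out, and nothing is read from it.

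**Figure D4:**
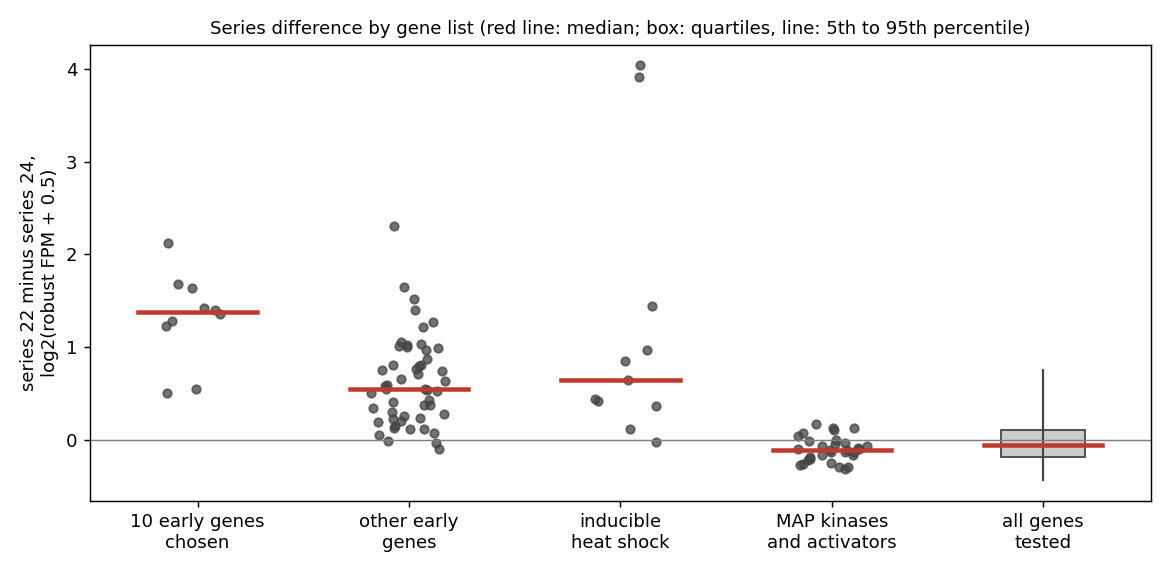
Series 22 minus series 24 on the log2(robust FPM + 0.5) scale (vertical axis), a point per tested gene, with the median as a red line. The lists are the 10 early genes, the other early genes, heat shock and chaperone genes (labelled inducible heat shock) and MAP kinases with early gene activators. The box and line at the right give the quartiles and the 5th to 95th percentile of all 14944 genes. The medians were 1.38, 0.54, 0.65, -0.11 and -0.06.

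Genes that carry the signal to early promoters were taken from another list. Of 31 MAP kinases, RAS and RAF genes and promoter factors, all tested, 1 (3.23%) was higher and 6 (19.4%) were lower in every library of series 22, near the shares of 6.14% and 14.3% over all genes. Creb1, which encodes CREB, measured 255.2, 241.2 and 264.0 in KO 1, WT 1 and WT 2, against 258.5, 283.7 and 288.5 in KO 4, KO 5 and WT 4. Crebbp, its coactivator, differed between series by -0.02, and the S6 kinases Rps6ka3 and Rps6ka1 by -0.11 and -0.26. In the KO minus WT comparison limma called 0 of the 31, with a median change of 0.01.

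Heat shock and chaperone genes, from a list not limited to genes that heat induces, moved with the same libraries. Of 11 tested, 9 (81.8%) were higher in every library of series 22 and 0 were lower, against 6.14% and 14.3% of all genes, and their summed level was 3232.4 to 3834.0 in series 22 against 1945.9 to 2217.1 in series 24. Hspa1b, an inducible HSP70 gene, measured 236.7, 249.3 and 133.2 in KO 1, WT 1 and WT 2, against 11.5, 11.8 and 12.7 in KO 4, KO 5 and WT 4. It was named for its size after its values were seen, while Hspa8, Hsp90aa1, Hspa5 and Dnajb1, the 4 of highest mean, had series differences of 0.41, 0.96, 0.65 and 0.84. The part of a heat shock response in the early gene values was not tested.

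Markers of cell types were set beside the shares of all genes, 6.14% of which were higher and 14.3% lower in every library of series 22. Of 12 CD4 T cell markers 0 were higher and 1 was lower in every library of series 22. Of 22 myeloid markers 0 were higher and 5 lower, with sums of 655.5 to 1358.7 in series 22 and 1327.2 to 2701.2 in series 24. B cell markers had 0 of 14 tested genes apart in either direction, with sums of 516.9 to 771.2 in series 22 and 392.9 to 649.8 in series 24. Of the markers of CD8 T and NK cells 1 of 11 was higher, with sums of 139.7 to 202.2 and 156.3 to 183.8. Of the erythroid and platelet list 1 of 5 tested genes was higher in series 22, with sums of 14.2 to 17.6 and 10.2 to 20.7, and the globin genes Hba-a1, Hba-a2, Hbb-bs and Hbb-bt were listed at 0 in all libraries. The stromal and endothelial list had 0 higher and 1 lower of 7, and its genes Ccl19 and Ccl21a were listed at 0. Its sums, 265.3 to 276.1 in series 22 and 286.2 to 308.9 in series 24, were mostly Pecam1, which averaged 272.4. Col1a2, Col3a1, Pdgfra and Kdr were highest in WT 1, where Col1a2 was 5.5, against 0.2 to 1.8 in the other libraries. WT 1 also had more genes with a value of at least 1, at 21275 against 13876 to 15003. Some low genes of other lists, among them Pax5 and Cr2, were highest there too, while others, among them Cd79b, were not. The part of stromal cells in these values was not tested. Activation and cycling genes had 0 of 11 apart, with sums of 1445.1 to 1684.6 and 1514.1 to 1725.7.

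The profile of the 10 genes over the 6 libraries was most closely matched, among 10303 other genes with a mean of at least 5, by Nfkbiz (Pearson r = 0.9986) and Klf6 (r = 0.9975). Nfkbiz, a nuclear IkappaB gene, measured 285.9, 227.2 and 259.4 in KO 1, WT 1 and WT 2, against 135.4, 157.6 and 157.4 in KO 4, KO 5 and WT 4. Klf6, a zinc finger factor gene, stood at 380.0, 304.0 and 321.6 in the libraries of series 22 and at 148.2, 176.0 and 176.9 in those of series 24. Odc1, Zbtb10, Hspa5 and Ext1 followed, at r between 0.9911 and 0.9956. After the mean of each series was subtracted, the closest genes were others, Pold3 (r = 0.9991), Gnptab (0.9988), Htatip2 (0.9978), Stam (0.9976), Ddx28 (0.9976) and N4bp2l1 (0.9975). These are descriptions over 6 libraries that share their series.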

How the data were processed

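RNA was sequenced from 6 CD4 T cell samples, 3 KO and 3 WT. Per the labels' protocols, libraries were made with a stranded TruSeq kit after ribosomal RNA depletion. The tools DESeq, DESeq2, featureCounts and STAR and the build GRCm38.p3 are listed, without roles or versions, per the submitters' processing notes. The authors deposited robust FPM, rounded to 1 decimal, and these were handled as RPM rather than counts. Sequencing depth is unknown, so no counting interval is given. ERCC spike-ins made up 92 of the 54624 rows and were left out of the tests. Another 6 columns of values matched no sample by name and were not used. Identifiers without version were matched to symbols for 54409 of 54532 gene rows.

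Genes with a mean of at least 1 were kept. Values were analysed as log2(value + 0.5), which understates changes of low genes. Genotype and library series, and in another fit their interaction, were fitted with limma (version 3.58.1, R 4.3.3) using a mean-variance trend, with two-sided moderated tests adjusted by the Benjamini-Hochberg method over all genes. A gene was called at an adjusted p below 0.05. The fits were tested on simulated data. The series' design text calls the samples biological replicates. Exon lengths and overlaps came from GENCODE on GRCm38, and promoters from RefSeq on GRCm38.p6. Plots were made in Python 3.11.15 (matplotlib 3.10.9).

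The members and lists were chosen with earlier results of these data known. All 10 genes are named, with the 4 genes of highest mean in each of 3 further lists and the 6 of closest profile; 4 listed symbols were matched through older names. Alternatives changed the pseudocount, filter, scaling, series term, trend and set of libraries.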

Additional observations from a re-analysis of the deposited data

How the results depend on the processing

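The KO minus WT comparison called 0 genes under each alternative run except the replicate block, where 5 genes were called, 1 higher and 4 lower in KO, and 0 of the 10 early genes were among them. That block rests on the replicate numbers 1 and 4, which KO and WT share, and no label says that they pair the samples. The interaction called 0 genes under each alternative except ERCC scaling, where 6 genes were called and 0 of the 10 were among them. The sign of KO minus WT was not stable for the early genes, and the smallest limma adjusted p over the alternatives was 0.663. Without the series term it turned negative for Jun (-0.30), Junb (-0.23), Egr1 (-0.15), Nr4a1 (-0.54), Ier2 (-0.0019), Dusp1 (-0.42), Ppp1r15a (-0.38) and Plk2 (-0.49). With ERCC scaling it turned negative for Jun (-0.067), Egr1 (-0.20), Nr4a1 (-0.21), Ier2 (-0.036), Dusp1 (-0.20) and Ppp1r15a (-0.13), where the median over all genes moved to -0.20 from 0.01. With the replicate block it turned for Dusp1 (-0.11). Leaving out 1 library at a time gave the log2 change a range for each gene, namely Fos -0.42 to 0.24, Fosb -0.46 to 0.14, Jun -0.17 to 0.47, Junb -0.15 to 0.63, Egr1 -0.14 to 0.17, Nr4a1 -0.26 to 0.27, Ier2 -0.16 to 0.52, Dusp1 -0.41 to 0.43, Ppp1r15a -0.18 to 0.35, Plk2 -0.12 to 0.56. The interaction kept its positive sign in all 10 genes under every alternative run. The series difference also kept its sign in all 10. The number of genes apart was 8 to 10, and it could fall only in the runs that changed the scaling. Depth is unknown, and 3 libraries per group, split unevenly over 2 series, limit the precision.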
